A study of Mus musculus with 44 samples.

Results

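Expression was compared between mouse embryonic stem (ES) cells in which Hex, inserted at the Rosa26 locus, had been recombined and ES cells of the same description in which it was unrecombined. The 8 arrays were chosen by their titles, 4 labelled recombined and 4 labelled unrecombined, out of 44 arrays in the series. A further 4 arrays of wild-type cells were used to say which of the 2 Hex states lay away from the parental level. The spread behind the test is pooled over 40 arrays in 11 groups. Besides the Hex and wild-type groups, it takes in clones 1 and 2 of cells with HexERTVP2 at Rosa26, which supply most of these arrays. Those clones were recombined or unrecombined, each with or without 4-OHT. All cells were of the CGR8 line, clone cgr8.8, and total RNA labelled with biotin was hybridised to a 1-colour Affymetrix array, MG-U74Av2, with 12422 probe sets after 66 control sets were set aside. The recombined group carried Hex at Rosa26 in its recombined form, the unrecombined group carried the same insertion in its unrecombined form, and the wild-type group carried none. The labels do not name the recombinase, the number of clones behind each Hex state, or whether replicate arrays are of separate cultures. The p-values therefore measure the spread between these arrays, which may be technical, and with 4 arrays a group their precision is limited.

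Hex, whose gene symbol is Hhex, is a homeodomain protein that acts mainly as a repressor and binds the Groucho/TLE co-repressors. It marks the anterior visceral endoderm of the early embryo, which secretes inhibitors of Nodal and Wnt signalling, and is later needed in liver, thyroid and blood vessels. Rosa26 is a locus that is transcribed in most mouse cells and is widely used to hold inserted genes, which often stay silent until a stop cassette is removed by recombination. Whether the insertion here worked in that way is not stated in the labels. ES cells are the cultured counterpart of the early epiblast and express Pou5f1, Sox2 and Nanog.

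Values are log2 of the deposited intensities. Medians ranged from 6.73 to 6.81 over the 40 arrays that the labels place in a group. Array 2 of unrecombined Hex stood apart, with an SD of 1.60 (1.79 to 1.98 on the other arrays). Its mean Pearson correlation with the others was 0.869 (0.978 to 0.990 for the rest). RNA and labelling quality was judged by the log2 ratio of β-actin signal at the 3′ and 5′ ends. On array 2 it was 2.24, the highest of the Hex and wild-type arrays but not of the series. Among arrays labelled HexERTVP2, array 3 of recombined clone 1 without 4-OHT read 2.34 (SD 1.87). Array 3 of recombined clone 2 with 4-OHT read 2.24 (SD 1.85). In the groups compared here the β-actin ratio was 1.32, 0.62, 1.70 and 0.94 on recombined arrays 1 to 4. It averaged 1.14 in recombined cells and 1.48 in unrecombined cells (1.23 without array 2), and was 1.20 in wild type. Each result was therefore obtained in 2 fits, with all arrays and without unrecombined array 2, and "rose" or "fell" is used below only where the adjusted p was under 0.05 with the same sign in both. The adjusted p comes from limma's moderated test, adjusted by Benjamini-Hochberg across all 12422 probe sets. Of the 8 ES cell markers, 7 had a mean above the array median, and their summed intensity was 9958 to 15028 in recombined cells, 13299 to 14694 in unrecombined cells without array 2 (6291 on array 2) and 13452 to 14257 in wild type. The 7 fibroblast markers, which would show feeder cells, summed to 993 to 1354 in recombined cells, 939 to 986 in unrecombined cells without array 2 (2403 on array 2) and 904 to 1045 in wild type, and none of them passed in both fits.

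The Hhex probe set gave 6.11, 6.19, 6.46 and 6.23 in recombined cells, 6.32, 4.94, 6.24 and 6.05 in unrecombined cells, and 6.11, 6.23, 6.15 and 6.08 in wild type. Apart from unrecombined array 2 the groups overlapped, and the log2 difference was 0.36 (SE 0.16, adjusted p = 0.243) with all arrays and 0.04 (SE 0.08, adjusted p = 0.83) without that array. The files do not say whether the inserted Hex holds the sequence that this probe set detects, so the value does not check the labels. The transcript of the targeted locus itself, Gt(ROSA)26Sor on chromosome 6, gave 4.2, 3.95, 4.23 and 4.15 in recombined cells, 5.29, 4.83, 4.85 and 5.31 in unrecombined cells, and 5.55, 5.44, 5.14 and 5.32 in wild type. The recombined arrays lay below every unrecombined and wild-type array, and the transcript fell by 0.94 with all arrays (SE 0.13, adjusted p = 1.54e-05) and by 1.02 (adjusted p = 5.15e-06) without array 2. All of these values lay below the array medians.

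With all arrays, 419 of 12422 probe sets passed (3.37%), 322 higher (2.59%) and 97 lower (0.781%) with Hex recombined, and without unrecombined array 2 the count was 778 (6.26%), 292 higher (2.35%) and 486 lower (3.91%). Centring each array on its median turned the split with all arrays to 193 higher and 144 lower. The 2 fits shared 284 calls with the same sign (2.29%), of which 202 rose (1.63%) and 82 fell (0.660%). In 238 of the 284 (1.92% of all) the 4 recombined and 4 unrecombined values did not overlap. Values did not overlap in 718 of all probe sets (5.78%). The count rests on a spread pooled over 40 arrays: a fit of the 8 Hex arrays alone called 8 probe sets, and 427 once array 2 was dropped from it. Taking 1 probe set per gene, 156 of 8251 genes rose (1.89%) and 60 fell (0.727%), and the median log2 difference of all genes was 0.03 with all arrays and 0.04 without array 2.

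Wild type lay nearer to recombined than to unrecombined cells for most of these calls. Of the 202 probe sets that rose, the wild-type mean was nearer to the recombined mean in 163 (80.7%), and of the 82 that fell in 63 (76.8%), against 38.1% of all probe sets. Without array 2, 170 probe sets passed between recombined cells and wild type (1.37%) and 451 between unrecombined cells and wild type (3.63%). Among the 202 rises, in the same fit, 11 passed only in the recombined comparison with wild type, 110 only in the unrecombined one, 8 in both and 73 in neither. Among the 82 falls the counts were 6, 47, 1 and 28 in the same order. With all arrays, 33 probe sets passed between recombined cells and wild type and 599 between unrecombined cells and wild type. Of the rises 12 and 140 did so, and of the falls 2 and 33. These comparisons share their arrays with the main one, so they place its 2 sides and are no separate support for it.

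The largest rise was that of Dynll2, a light chain of the dynein motor, on chromosome 11. It gave 8.56, 10.02, 8.74 and 9.29 in recombined cells, 7.05, 5.54, 6.36 and 7.01 in unrecombined cells, and 9.52, 8.61, 8.86 and 8.10 in wild type. The groups did not overlap, wild type lay within the recombined range or just below it, and the log2 difference was 2.66 (SE 0.44, adjusted p = 2.43e-04) with all arrays and 2.34 (SE 0.46, adjusted p = 0.00102) without array 2. A second Dynll2 probe set rose by less, 0.94 and 0.88. Calcoco2, an autophagy receptor also known as NDP52, gave 8.06, 7.94, 7.83 and 7.93 in recombined cells, 5.87, 5.25, 6.11 and 6.05 in unrecombined cells, and 7.99, 8.03, 7.71 and 7.69 in wild type. Its recombined and wild-type values coincided, and the unrecombined arrays stood well below both, with a log2 difference of 1.93 (SE 0.13, adjusted p = 1.68e-12) without array 2. Calcoco2 also lies on chromosome 11, as do Dnajc7, a co-chaperone of Hsp70 and Hsp90, and Krt19.

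The rises were concentrated on 2 chromosomes. Of the 181 risen probe sets with a mapped chromosome, 94 (51.9%) lay on chromosome 8 or 11, which together hold 1492 of the 10817 mapped probe sets (13.8%), and only 1 of the falls did, on chromosome 8. On chromosome 8, 40 of 548 probe sets rose (7.30%), and on chromosome 11, 54 of 944 (5.72%). Elsewhere 87 of 9325 rose (0.933%) and 66 fell (0.708%). These chromosomes were singled out after their values were seen, so no test is attached. The rises there included Dynll2, Calcoco2, Krt19, Dnajc7, Irf1 and Sqstm1 on chromosome 11 and Tpm4, Psmb10, Col4a1, Acta1, Klf2 and Herpud1 on chromosome 8.

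The shift extended beyond the called genes. The median log2 difference of chromosome 8 exceeded that of all mapped probe sets by 0.16 with all arrays and by 0.09 without array 2, and that of chromosome 11 by 0.11 and 0.09. The excess of each other chromosome without array 2, apart from Y with its 9 probe sets, lay between -0.04 and 0.00. Among probe sets above the median brightness, 277 of 314 on chromosome 8 (88.2%) and 482 of 561 on chromosome 11 (85.9%) had a positive difference, against 51.3% of all brighter ones. When each chromosome was cut into 5 equal parts by gene order, the median difference of the brighter probe sets was 0.13 to 0.21 in the parts of chromosome 8 and 0.13 to 0.17 in those of chromosome 11, so the shift was spread along both.

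The 2 chromosomes differed in where wild type lay. For chromosome 8 the brighter probe sets were higher than wild type by 0.11 in recombined cells and lower by 0.08 in unrecombined cells (-0.08), each relative to all chromosomes. For chromosome 11 recombined cells were at 0.03 from wild type and unrecombined cells at -0.19. On the other chromosomes, apart from Y, recombined cells ran from -0.13 (chromosome 18) to 0.07 (chromosome 7). Unrecombined cells ran there from -0.01 (chromosome 1) to 0.03 (chromosome 7). The recombined value of chromosome 8 was thus the highest, but no larger in size than that of chromosome 18. By array, the chromosome 8 excess over the wild-type mean was 0.08, 0.13, 0.07 and 0.10 in recombined cells and -0.08, -0.11, -0.06 and -0.12 in unrecombined cells. The chromosome 11 excess was -0.01, 0.05, 0.01 and 0.03 in recombined cells and -0.17, -0.01, -0.16 and -0.22 in unrecombined cells, where the value of -0.01 was that of array 2. The recombined and unrecombined arrays did not overlap on chromosome 8, and on chromosome 11 array 2 fell at the lower edge of the recombined range. Mouse ES cell lines are known to gain whole copies of these chromosomes in culture at times. DNA copy number was not measured on these arrays, so its part in these values was not tested, and recombination and any other difference between the Hex cultures cannot be told apart here.

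**Figure D1:**
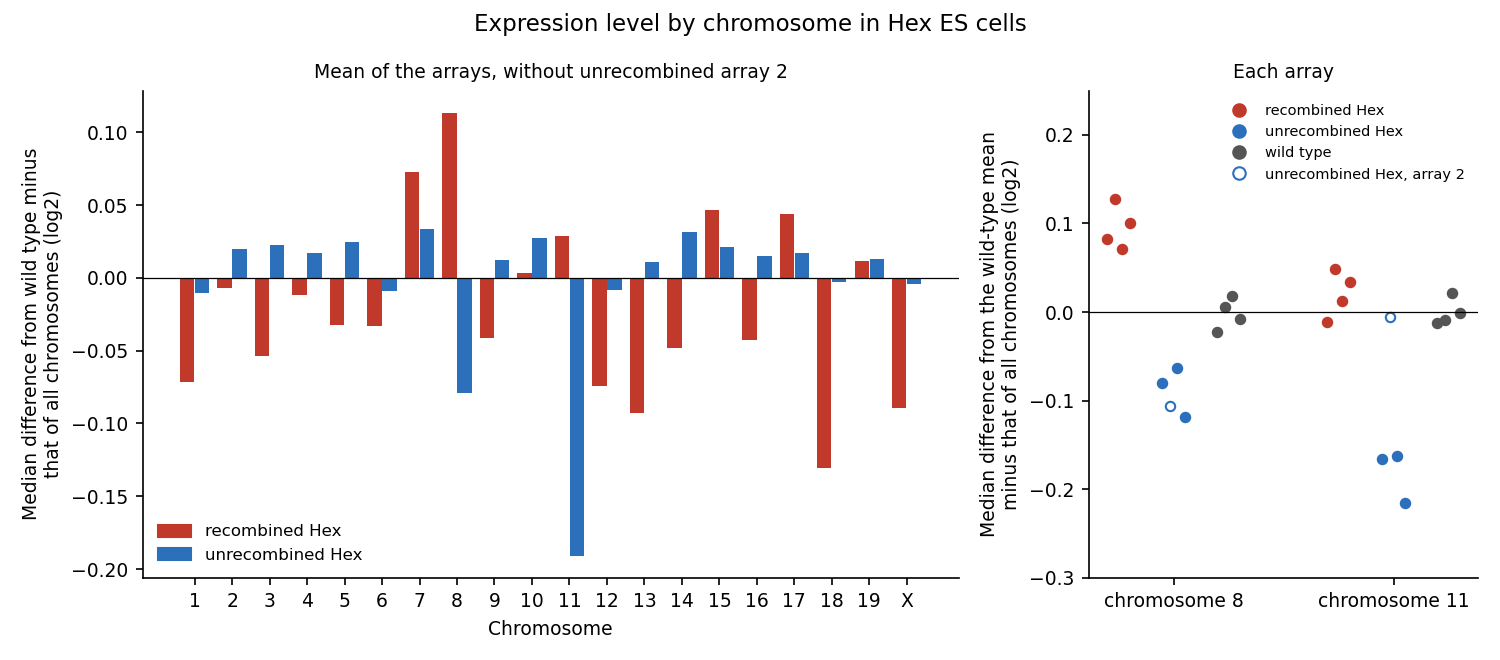
Left, the median log2 difference from wild type of the brighter probe sets of each chromosome, minus that of all chromosomes, for recombined (red) and unrecombined (blue) Hex cells without unrecombined array 2. Right, the same quantity for chromosomes 8 and 11 on each array, with array 2 as an open circle; recombined arrays sat between 0.07 and 0.13 on chromosome 8 and unrecombined arrays between -0.12 and -0.06, while on chromosome 11 the unrecombined arrays other than array 2 sat between -0.22 and -0.16.

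Genes of the interferon response and of antigen presentation gave the most rises by number of any list, second to the germ cell list by share. Interferons act on promoters that carry GAS or ISRE elements, and induce GTPases of the guanylate-binding family, the immunoproteasome subunits that shape peptides, and the MHC class I molecules that present them. ES cells normally express little of this machinery. Of 31 measured genes on this list 10 rose (32.3%) and 0 fell, against 1.89% and 0.727% of all genes. Outside chromosomes 8 and 11 lay 8 of these 10 and 26 of the 31, and 79 of all 156 genes that rose. The list's median log2 difference was 0.18 with all arrays and 0.28 without array 2, against 0.03 and 0.04 for all genes. The list was chosen with earlier results of these data known, so its share is no separate support.

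The promoters of 5 of these genes are shown because the searched elements lie in them. They are the 250 bases before the annotated start, from RefSeq on GRCm38.p6, with the matched bases in capitals. They span chr3:142620413-142620662 and chr3:142594597-142594846 on the plus strand for Gbp2 and Gbp2b, chr3:142559794-142560043 on the plus strand for the first of 2 Gbp3 promoters, chr4:156200819-156201068 on the minus strand for Isg15, and chr11:53769764-53770013 on the plus strand for the first of 2 Irf1 promoters.
Gbp2: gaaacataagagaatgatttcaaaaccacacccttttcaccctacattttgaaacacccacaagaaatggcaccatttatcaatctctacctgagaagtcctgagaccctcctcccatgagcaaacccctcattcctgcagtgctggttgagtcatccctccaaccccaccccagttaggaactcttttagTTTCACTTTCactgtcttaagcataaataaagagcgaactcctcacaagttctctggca
Gbp2b: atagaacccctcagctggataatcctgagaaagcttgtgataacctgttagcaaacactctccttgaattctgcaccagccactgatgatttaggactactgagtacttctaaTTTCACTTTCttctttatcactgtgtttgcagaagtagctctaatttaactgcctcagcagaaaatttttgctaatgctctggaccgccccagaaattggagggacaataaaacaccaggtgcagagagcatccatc
Gbp3: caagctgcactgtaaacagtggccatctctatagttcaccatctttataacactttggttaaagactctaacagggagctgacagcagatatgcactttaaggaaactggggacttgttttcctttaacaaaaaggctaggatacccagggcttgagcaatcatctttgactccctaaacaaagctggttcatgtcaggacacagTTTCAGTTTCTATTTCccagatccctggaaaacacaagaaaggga
Isg15: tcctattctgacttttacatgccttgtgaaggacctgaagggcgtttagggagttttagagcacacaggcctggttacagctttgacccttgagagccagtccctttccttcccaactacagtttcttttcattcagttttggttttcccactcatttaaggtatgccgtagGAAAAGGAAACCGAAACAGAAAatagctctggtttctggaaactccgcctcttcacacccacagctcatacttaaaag
Irf1: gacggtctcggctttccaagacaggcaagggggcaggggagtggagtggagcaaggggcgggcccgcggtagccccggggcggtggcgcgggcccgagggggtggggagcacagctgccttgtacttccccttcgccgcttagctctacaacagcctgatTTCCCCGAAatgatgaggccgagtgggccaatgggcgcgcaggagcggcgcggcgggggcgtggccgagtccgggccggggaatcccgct

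The capitals mark GAAA, any 2 bases and GAAA again, on either strand, in the first 4 promoters, a form of the ISRE, and TTCNNNGAA, the GAS form, in Irf1. Matches may overlap each other, as in Isg15, which holds 3, and Gbp3, which holds 2. The ISRE letters occurred in 5 of the 10 risen genes (Gbp2, Gbp2b, Gbp3, Isg15 and B2m) and in 2.98% of the 32851 promoters of the table, and the GAS letters in 2 of the 10 (Irf1 and Psmb8) and in 7.02% of promoters. They start 59 bases before the start of Gbp2 and 137 before that of Gbp2b. Psmb10, H2-K1 and H2-D1 held neither string in this window, nor did the second promoters of Gbp3 and Irf1. A gene was counted if any of its promoters held the letters, while the percentages are of single promoters. The list is of interferon-induced genes, and its members that did not rise were not searched, so these shares do not bear on the rise. A match describes the sequence and is not a measured binding site.

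The 3 guanylate-binding proteins, neighbours on chromosome 3, had the largest rises of the list without array 2, while with all arrays Gbp3 came after Psmb10, B2m and Psmb8. Gbp2b gave 7.54, 7.55, 7.37 and 7.43 in recombined cells, 6.18, 6.15, 6.09 and 6.25 in unrecombined cells, and 7.54, 7.51, 7.56 and 7.70 in wild type. The groups were separated by more than 1 log2 unit with array 2 among the other unrecombined arrays, and the rise was 1.30 (SE 0.10, adjusted p = 7.51e-11) with all arrays and 1.30 (SE 0.11, adjusted p = 3.44e-10) without array 2. Gbp2 gave 8.0, 7.91, 7.57 and 7.89 in recombined cells, 6.67, 6.34, 6.54 and 6.46 in unrecombined cells, and 8.06, 7.94, 7.87 and 7.96 in wild type. Its rise was 1.34 (SE 0.09, adjusted p = 1.31e-12) and 1.29 (SE 0.09, adjusted p = 2.85e-12). Gbp3 gave 7.58, 7.35, 7.5 and 7.51 in recombined cells, 6.26, 6.95, 6.11 and 6.71 in unrecombined cells, and 7.87, 7.75, 7.39 and 7.85 in wild type, a rise of 0.98 and 1.13. In all 3 the wild-type mean lay above the recombined mean. These genes are close relatives, and their probe sets may share signal.

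Psmb8, a catalytic subunit of the immunoproteasome, gave 6.93, 7.56, 6.70 and 7.21 in recombined cells, 6.37, 5.81, 6.03 and 6.11 in unrecombined cells, and 7.07, 7.24, 7.43 and 7.28 in wild type, a rise of 1.02 (SE 0.19, adjusted p = 0.00119) with all arrays. Psmb10, a second such subunit on chromosome 8, gave 9.35, 10.03, 8.52 and 9.57 in recombined cells, 8.49, 7.47, 8.48 and 8.26 in unrecombined cells, and 8.64, 9.04, 9.46 and 8.87 in wild type. Its recombined values, like those of Psmb8, ran in the inverse order of the β-actin ratio of those arrays (1.32, 0.62, 1.70 and 0.94). The same inverse order held for 11 of the 64 named genes that passed in both fits (Psmb10, Krt19, Id3, Fzd2, Hspa1a, Herpud1, Kit, Anxa6, Dll1, Pros1 and Zfp532), and the same order as the ratio for 3 (Gt(ROSA)26Sor, Neurod1 and 1700097N02Rik). With the ratio as a covariate the Psmb10 difference was 0.91 (limma, adjusted p = 2.96e-06), and its call in the fit without the covariate was lost without recombined array 2 (0.97, adjusted p = 0.0821). The third subunit of this kind, Psmb9, differed by 0.11 (adjusted p = 0.539), and the peptide transporter Tap1 by -0.01 (adjusted p = 0.956).

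B2m, the light chain of MHC class I, gave 8.27, 7.59, 7.81 and 7.56 in recombined cells, 6.94, 6.13, 6.93 and 6.91 in unrecombined cells, and 8.08, 8.10, 7.67 and 7.98 in wild type. It rose by 1.08 (SE 0.21, adjusted p = 0.00170) with all arrays and by 0.88 without array 2. The heavy chains H2-K1 and H2-D1 rose by less, 0.34 and 0.38, from groups that did not overlap. Irf1, a transcription factor induced by interferon-γ, gave 8.07, 8.43, 8.04 and 8.29 in recombined cells, 7.44, 7.67, 7.53 and 7.26 in unrecombined cells, and 8.16, 8.27, 8.34 and 8.24 in wild type, a rise of 0.73 and 0.80. Isg15, a ubiquitin-like protein induced mainly by type I interferon, gave 7.58, 7.83, 7.47 and 7.45 in recombined cells, 6.96, 6.30, 6.91 and 6.85 in unrecombined cells, and 7.47, 7.5, 7.54 and 7.41 in wild type, a rise of 0.83 and 0.68. Other genes induced by type I interferon did not pass in either fit, among them Ifit1 (0.18), Ifit2 (-0.10), Ifit3 (-0.20), Mx1 (-0.04), Usp18 (-0.41) and Irf7 (-0.24).

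**Figure D2:**
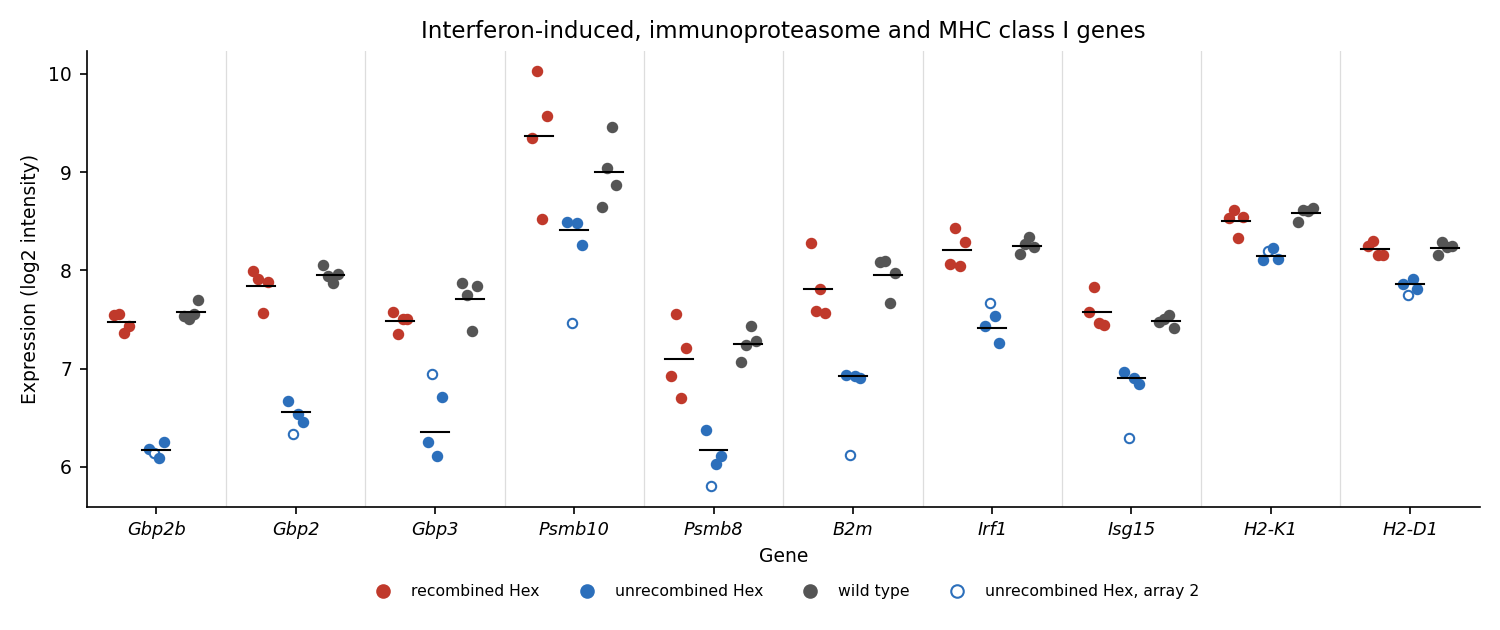
Log2 intensity of the 10 interferon-induced, immunoproteasome and MHC genes that rose, for each array of recombined Hex (red), unrecombined Hex (blue, array 2 open) and wild-type cells (grey), with group means as lines, array 2 left out of its mean. Every recombined array sat above every unrecombined array of the same gene, with Gbp2b at 7.37 to 7.55 in recombined and 6.09 to 6.25 in unrecombined cells.

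The inducible Hsp70 genes were among the few whose recombined level lay away from wild type. Hsp70 is a chaperone that refolds damaged proteins, and Hspa1a and Hspa1b are its 2 near-identical stress-induced copies, adjacent on chromosome 17. Hspa1b gave 8.26, 8.62, 8.15 and 8.11 in recombined cells, 6.90, 6.33, 6.90 and 6.70 in unrecombined cells, and 7.27, 7.24, 7.53 and 7.34 in wild type. Recombined arrays stood above wild type and unrecombined arrays below it, and the rise was 1.58 (SE 0.14, adjusted p = 3.40e-09) with all arrays and 1.45 (SE 0.14, adjusted p = 1.40e-08) without array 2. Hspa1a gave 7.62, 7.73, 7.59 and 7.66 in recombined cells, 7.15, 6.78, 6.99 and 6.84 in unrecombined cells, and 7.13, 7.04, 7.16 and 7.12 in wild type, a rise of 0.71 and 0.66. Signal of the 2 genes may be shared between their probe sets.

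The promoters of this pair are shown since the genes rose together by different amounts. They span chr17:34972157-34972406 and chr17:34959239-34959488 on the minus strand of GRCm38.p6 (RefSeq), 250 bases each, and were identical at 247 positions. The capitals mark GAANNTTC, a pair of facing units of the heat shock element, which on either strand occurred in 6.69% of promoters. It was found in 2 of the 4 chaperone genes that rose, this pair, and not in the promoters of the others, Dnaja2 and Dnajc7. Chaperone genes that did not rise were not searched, so this count does not bear on the rise.
Hspa1a: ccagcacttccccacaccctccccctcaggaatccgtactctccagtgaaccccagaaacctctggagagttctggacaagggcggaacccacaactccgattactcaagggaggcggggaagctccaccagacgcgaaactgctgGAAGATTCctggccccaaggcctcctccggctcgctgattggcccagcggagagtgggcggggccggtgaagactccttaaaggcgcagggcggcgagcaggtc
Hspa1b: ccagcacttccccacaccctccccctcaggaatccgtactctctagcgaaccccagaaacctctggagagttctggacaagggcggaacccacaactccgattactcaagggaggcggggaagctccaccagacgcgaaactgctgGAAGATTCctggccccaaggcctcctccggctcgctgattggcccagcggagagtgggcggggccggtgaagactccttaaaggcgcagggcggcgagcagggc

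The rest of the chaperone list did not follow. Of 31 measured members 4 rose (12.9%) and 0 fell, against 1.89% and 0.727% of all genes. The list's median was 0.09 with all arrays and -0.10 without array 2. The other rises were Dnajc7 on chromosome 11, at 10.18, 10.87, 10.37 and 10.86 in recombined cells, 9.57, 7.39, 9.47 and 9.44 in unrecombined cells, and 10.90, 10.52, 10.72 and 10.65 in wild type, and Dnaja2 on chromosome 8 (0.67 and 0.40). Array 2 lay 2 log2 units below its group in Dnajc7, and the rise was 1.60 with it and 1.08 without it. The constitutive chaperones Hspa8 (-0.06 and -0.33) and Hsp90aa1 (0.05 and -0.07) did not pass in either fit. Hsph1, a nucleotide exchange factor of Hsp70, and Hspa9, its mitochondrial relative, were lower without array 2 only (-0.81, adjusted p = 1.90e-04, and -0.52, adjusted p = 0.0226).

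Several actin genes and actin-binding proteins rose, though most of their list did not pass. Serum response factor drives many of these genes through the CArG box, and Acta2, the smooth muscle actin, is also read in fibroblasts and differentiating ES cells. Acta2 gave 7.64, 7.40, 7.31 and 7.36 in recombined cells, 5.74, 5.53, 5.83 and 6.35 in unrecombined cells, and 6.85, 6.58, 6.65 and 6.61 in wild type. The 3 groups did not overlap, with wild type between the Hex groups, and the rise was 1.56 (SE 0.14, adjusted p = 3.40e-09) with all arrays and 1.45 (SE 0.14, adjusted p = 1.62e-08) without array 2. Acta1, skeletal muscle actin on chromosome 8, gave 6.78, 6.97, 6.40 and 6.46 in recombined cells, 5.72, 5.01, 5.68 and 5.54 in unrecombined cells, and 5.62, 5.95, 6.09 and 5.76 in wild type. Here unrecombined and wild-type values overlapped apart from array 2, and the recombined arrays lay above both, with a rise of 1.16 (SE 0.16, adjusted p = 1.57e-05) and 1.01. Actin genes are alike in sequence, so signal may be shared between them.

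Of 21 measured smooth muscle and serum response factor target genes 5 rose (23.8%) and 0 fell, against 1.89% and 0.727% of all genes. The list median was 0.40 with all arrays and 0.20 without array 2. Tagln, an actin-binding protein of smooth muscle, gave 8.44, 8.81, 8.28 and 8.92 in recombined cells, 7.55, 6.98, 7.58 and 7.56 in unrecombined cells, and 8.11, 8.26, 8.67 and 8.39 in wild type, a rise of 1.20 and 1.05. Tpm4, a tropomyosin on chromosome 8, rose by 1.08 and 0.90, Tpm1 by 0.65 and 0.56, and Myl9, a regulatory myosin light chain, by 0.60 and 0.47. Vcl (1.02, adjusted p = 0.0538) and Actn1 (0.50, adjusted p = 0.295) did not pass, nor did Myh11, the smooth muscle myosin (-0.21, adjusted p = 0.526). Acta2 and Tagln are also made by fibroblasts, and all 19 measured genes of the fibroblast list, these 2 included, were higher in recombined cells without array 2, against 4940 of 8251 genes, but 8 of 19 were with all arrays. The other 17 did not pass in either fit, with differences of at most 0.26 without array 2, and the part of fibroblasts in the rises was not tested. The growth factor response genes Ccn1 (0.37) and Ccn2 (0.37) did not pass either. The CArG box, searched by its strict form on both strands, occurred in 2 of the 5 genes of this group with a promoter entry, Acta1 being counted with them, namely Acta1 and Myl9, and in 1.47% of all promoters. List members that did not rise were not searched, so these shares do not bear on the rise. The Acta1 promoter is shown with the CArG box in capitals, chr8:123894776-123895025 on the minus strand of GRCm38.p6 (RefSeq).
Acta1: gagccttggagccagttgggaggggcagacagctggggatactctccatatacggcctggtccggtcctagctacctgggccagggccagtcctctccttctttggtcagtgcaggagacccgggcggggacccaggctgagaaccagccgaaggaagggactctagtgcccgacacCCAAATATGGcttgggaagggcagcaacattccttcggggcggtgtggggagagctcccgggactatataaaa

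A few genes of simple epithelia and of calcium-binding proteins rose. Krt19, a keratin of simple epithelium on chromosome 11, gave 7.13, 7.67, 6.88 and 7.55 in recombined cells, 5.86, 6.60, 5.80 and 5.44 in unrecombined cells, and 6.81, 7.12, 7.79 and 7.04 in wild type. The wild-type and recombined ranges overlapped, and the rise was 1.38 (SE 0.29, adjusted p = 0.00445) and 1.61 (SE 0.30, adjusted p = 6.44e-04), with a second probe set at 0.44 and 0.52. Krt8 rose by 1.02 and 0.77, and its filament partner Krt18 differed by 0.66 (adjusted p = 0.0626) with all arrays and 0.80 (adjusted p = 0.0139) without array 2. Dsp, which links keratins to desmosomes, rose by 0.90 and 0.83 on the probe set used, while a second one did not pass (-0.18, adjusted p = 0.585). Of 16 measured genes on this list 3 rose (18.8%) and 0 fell, against 1.89% and 0.727% of all genes. The adhesion genes Cdh1 (-0.15), Epcam (0.24) and Ocln (0.07) did not pass with all arrays.

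Of 16 measured S100 and annexin genes, which encode calcium-binding proteins, 4 rose (25%) and 0 fell, against 1.89% and 0.727% of all genes. S100a6 gave 9.0, 9.07, 8.07 and 8.64 in recombined cells, 7.57, 6.05, 7.79 and 7.66 in unrecombined cells, and 8.72, 9.16, 8.84 and 8.67 in wild type, a rise of 1.42 (SE 0.27, adjusted p = 0.00119) and 1.02. Anxa3 gave 8.09, 7.86, 7.97 and 8.17 in recombined cells, 7.05, 6.23, 7.02 and 7.0 in unrecombined cells, and 8.05, 7.99, 7.96 and 7.97 in wild type. Its recombined and wild-type values coincided, and it rose by 1.20 (SE 0.14, adjusted p = 5.35e-07) and 1.0. Anxa1 rose by 1.07 and 0.89, with a second probe set that also passed (1.29) and another that did not (0.37, adjusted p = 0.225). Anxa6, on chromosome 11, rose by 0.81 and 0.50, while Anxa2, Anxa4, Anxa5 and S100a10 did not pass. Phlda1, induced by growth factors, gave 6.96, 6.71, 7.20 and 7.07 in recombined cells, 6.03, 4.72, 6.0 and 5.81 in unrecombined cells, and 6.61, 6.59, 6.07 and 6.52 in wild type, a rise of 1.34 and 1.04.

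Col4a1 on chromosome 8, a chain of the collagen of basement membranes, gave 8.82, 8.16, 8.58 and 8.20 in recombined cells, 7.31, 7.05, 7.36 and 7.63 in unrecombined cells, and 8.01, 7.81, 7.57 and 7.81 in wild type. The recombined arrays lay above all others, and the rise was 1.10 (SE 0.18, adjusted p = 2.32e-04) and 1.0. Its partner Col4a2, transcribed from the same region, differed by 0.19 (adjusted p = 0.131) with all arrays and by 0.27 (adjusted p = 0.00565) without array 2. Of 18 measured basement membrane genes only Col4a1 rose and 0 fell, and the laminins Lamb1 (0.12) and Lamc1 (-0.12) did not pass.

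**Figure D3:**
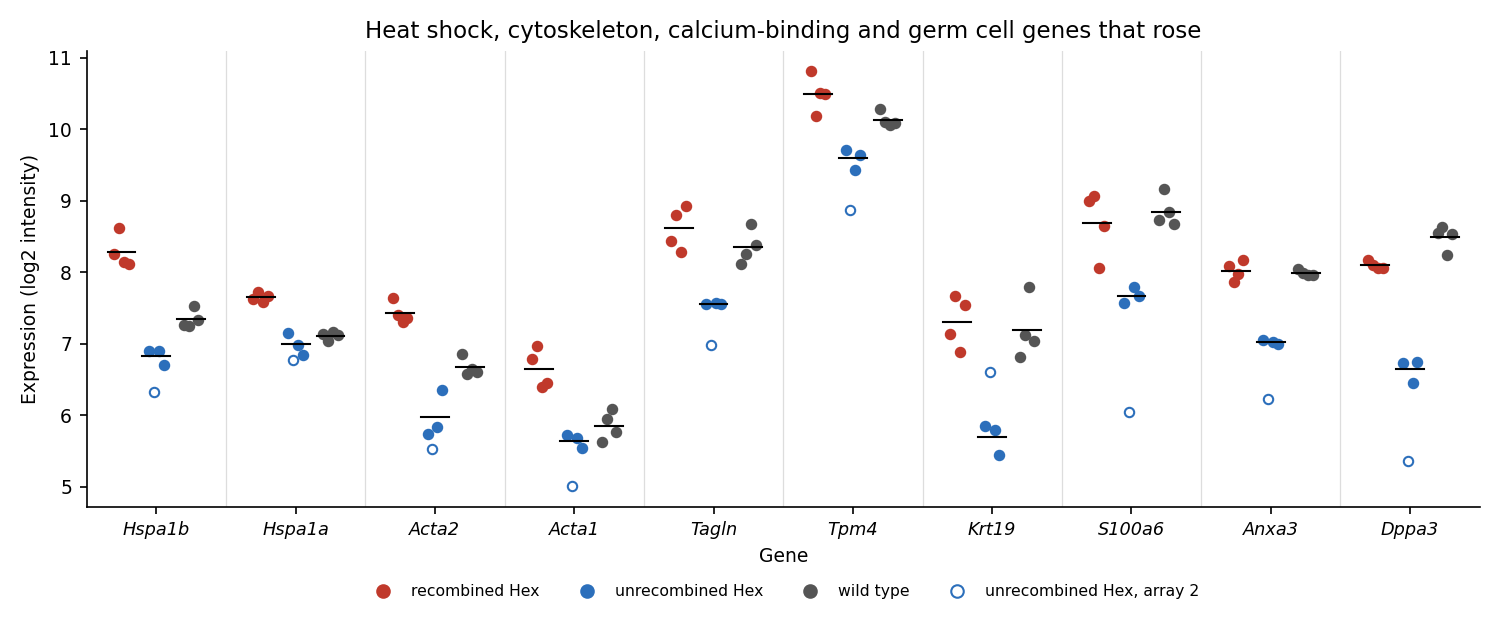
Log2 intensity of 10 genes that rose, for each array of recombined Hex (red), unrecombined Hex (blue, array 2 open) and wild-type cells (grey), with group means as lines, array 2 left out of its mean. Hspa1b, Acta2 and Acta1 were higher in recombined than in wild-type cells, while the recombined and wild-type arrays overlapped in Anxa3 and S100a6 and Dppa3 lay below wild type.

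The short germ cell list had the highest share of rises of any list, 3 of 8 (37.5%), against 1.89% of all genes. The lists were chosen with earlier results of these data known, so this rank is no separate support for the rise. Pluripotency genes passed in both directions once array 2 was left out. Dppa3, or Stella, a maternal and germ cell protein that varies between naive ES cells, gave 8.18, 8.10, 8.06 and 8.06 in recombined cells, 6.74, 5.36, 6.45 and 6.74 in unrecombined cells, and 8.55, 8.63, 8.24 and 8.54 in wild type. All recombined arrays lay between the unrecombined and the wild-type ones, and the rise was 1.78 (SE 0.18, adjusted p = 4.15e-08) with all arrays and 1.45 (SE 0.13, adjusted p = 1.35e-09) without array 2. Nanog gave 11.41, 11.04, 11.09 and 11.25 in recombined cells, 10.78, 9.90, 10.69 and 10.83 in unrecombined cells, and 11.62, 11.57, 11.30 and 11.57 in wild type, and rose by 0.65 and 0.43 (adjusted p = 0.0272 without array 2); a second probe set did not pass (0.30 and 0.35).

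Of 23 measured pluripotency genes 4 rose in both fits (Dppa3, Nanog, Tbx3 and Klf2) and 0 fell, against 1.89% and 0.727% of all genes. But without array 2, where 4.42% of all genes were lower, a further 5 passed as lower. They were Klf5 (-0.61), Nr0b1 (-0.53), Fgf4 (-0.39), Dppa5a (-0.38) and Tfcp2l1 (-0.33). The call of Tbx3 (0.32 and 0.37) was lost when any 1 recombined array, or unrecombined array 3 or 4, was left out, with a difference of 0.26 to 0.34. Pou5f1 differed by 0.03 and -0.50 and Sox2 by -0.09 and -0.11, with adjusted p of at least 0.428. Of 8 measured germ cell genes 3 rose, Dppa3, the receptor Kit (0.75 and 0.52) and the transcription factor Tfap2c (0.60 and 0.39), and 0 fell. Dmrt1, a germ cell transcription factor, and Rpl39l, which is high in germ cells, were not counted in this list and fell, as described below. For Kit the values were 7.80, 7.90, 7.78 and 7.85 in recombined cells, 7.19, 6.37, 7.49 and 7.26 in unrecombined cells, and 8.23, 8.02, 7.96 and 8.23 in wild type, so recombined cells again lay between the others.

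Of 24 measured imprinted genes, which are expressed from 1 parental copy, Mest rose and Cdkn1c fell. Cdkn1c, an inhibitor of the cell cycle, gave 7.59, 6.96, 6.90 and 6.84 in recombined cells, 8.84, 7.29, 8.83 and 8.8 in unrecombined cells, and 8.95, 9.08, 8.69 and 8.74 in wild type. Apart from unrecombined array 2, which fell within the recombined range, the recombined arrays lay more than 1 log2 unit below both other groups, and the gene fell by 1.37 (SE 0.27, adjusted p = 0.00189) with all arrays and by 1.75 (SE 0.23, adjusted p = 4.81e-06) without array 2. Mest gave 9.0, 9.0, 8.90 and 9.40 in recombined cells, 8.38, 6.60, 8.46 and 8.58 in unrecombined cells, and 7.99, 7.82, 7.96 and 8.08 in wild type. It rose by 1.07 (SE 0.26, adjusted p = 0.0131) and 0.60, and the call was lost without recombined array 4 (0.96, adjusted p = 0.0582). Other measured imprinted genes, among them Kcnq1 (-0.34), Phlda2 (0.16), Igf2 (0.31) and Sgce (0.26), did not pass with all arrays.

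The largest fall apart from Cdkn1c was that of Gbx2, a homeodomain factor of the neural plate that also supports ES cell self-renewal. It gave 8.64, 8.20, 8.34 and 8.34 in recombined cells, 9.92, 8.36, 9.90 and 9.88 in unrecombined cells, and 8.64, 8.58, 8.60 and 8.74 in wild type. Array 2 fell among the recombined arrays, the other 3 unrecombined arrays stood over 1 log2 unit above recombined and wild-type cells, and Gbx2 fell by 1.14 (SE 0.21, adjusted p = 9.23e-04) with all arrays and by 1.52 (SE 0.14, adjusted p = 3.37e-09) without array 2. Of 21 measured neural genes 3 fell (14.3%), Gbx2, the proneural factor Neurod1 and the Notch ligand Dll1, and Nes rose (0.65 and 0.57). Of all genes 0.727% fell and 1.89% rose. Neurod1 gave 4.53, 4.27, 4.75 and 4.39 in recombined cells, 5.14, 5.31, 5.18 and 5.14 in unrecombined cells, and 4.67, 4.66, 4.47 and 4.68 in wild type, all below the array medians, and fell by 0.71 and 0.67. Dll1 fell by 0.40 and 0.46 on the probe set used, while a second one did not pass and had the opposite sign (0.24 and 0.32). The call of Nes was lost without recombined array 2 or 4 (0.59, adjusted p = 0.0777, and 0.58, adjusted p = 0.0720), and a second probe set did not pass (0.16 and 0.07).

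Among other falls whose groups did not overlap, Abca1, which exports cholesterol, gave 5.65, 5.16, 5.30 and 5.47 in recombined cells, 6.61, 5.93, 6.55 and 6.71 in unrecombined cells, and 5.92, 5.73, 5.74 and 6.11 in wild type. It fell by 1.06 (SE 0.17, adjusted p = 1.52e-04) and 1.23, but a second probe set did not pass (-0.16 and 0.01). Foxp1, a forkhead repressor, gave 7.39, 7.35, 7.43 and 7.43 in recombined cells, 8.23, 7.74, 8.23 and 8.15 in unrecombined cells, and 7.66, 7.69, 7.65 and 7.64 in wild type. The 3 groups did not overlap, and Foxp1 fell by 0.69 (SE 0.07, adjusted p = 4.60e-08) and 0.81 (SE 0.05, adjusted p = 1.68e-12); its second probe set differed by -0.53 (adjusted p = 0.0561) and -0.85 (adjusted p = 1.40e-08).

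Icam1, an adhesion molecule of the immune response, gave 5.68, 6.55, 5.71 and 6.47 in recombined cells, 6.98, 7.17, 7.20 and 6.98 in unrecombined cells, and 6.57, 6.43, 6.59 and 6.50 in wild type. It fell by 0.98 and 0.95, the opposite direction to the interferon-induced genes, and the call was lost without recombined array 1 (-0.84, adjusted p = 0.118) or array 3 (-0.85, adjusted p = 0.101). Rpl39l, a relative of a ribosomal protein gene that is high in germ cells, gave 7.37, 7.23, 6.79 and 7.12 in recombined cells, 7.94, 7.71, 8.01 and 7.98 in unrecombined cells, and 7.06, 7.15, 6.99 and 6.90 in wild type, and fell by 0.78 (SE 0.11, adjusted p = 1.15e-05) and 0.85. It was the only one of 34 cytosolic ribosomal protein genes to pass in both fits. Pros1, an anticoagulant cofactor and ligand of TAM receptors, fell by 0.78 and 0.79, Fip1l1, a polyadenylation factor, by 0.80 and 0.70, Klhl9, a ubiquitin ligase adaptor, by 0.61 and 0.70, and Tiparp, a target of the aryl hydrocarbon receptor, by 0.54 and 0.61. The remaining falls chosen by size were 1700097N02Rik, Gdap10, Gm15987, D17H6S56E-5 and Zfp532, with log2 differences from -0.58 to -0.71 with all arrays. A second D17H6S56E-5 probe set did not pass and had the opposite sign (0.07 and 0.10). Single arrays ended the calls of the last 3: Gm15987 without recombined array 1 or 4 or unrecombined array 1 (-0.62 to -0.67), D17H6S56E-5 without recombined array 1 or 2 (-0.54 and -0.60), and Zfp532 without recombined array 1 or 3 or unrecombined array 1 or 3 (-0.41 to -0.64).

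**Figure D4:**
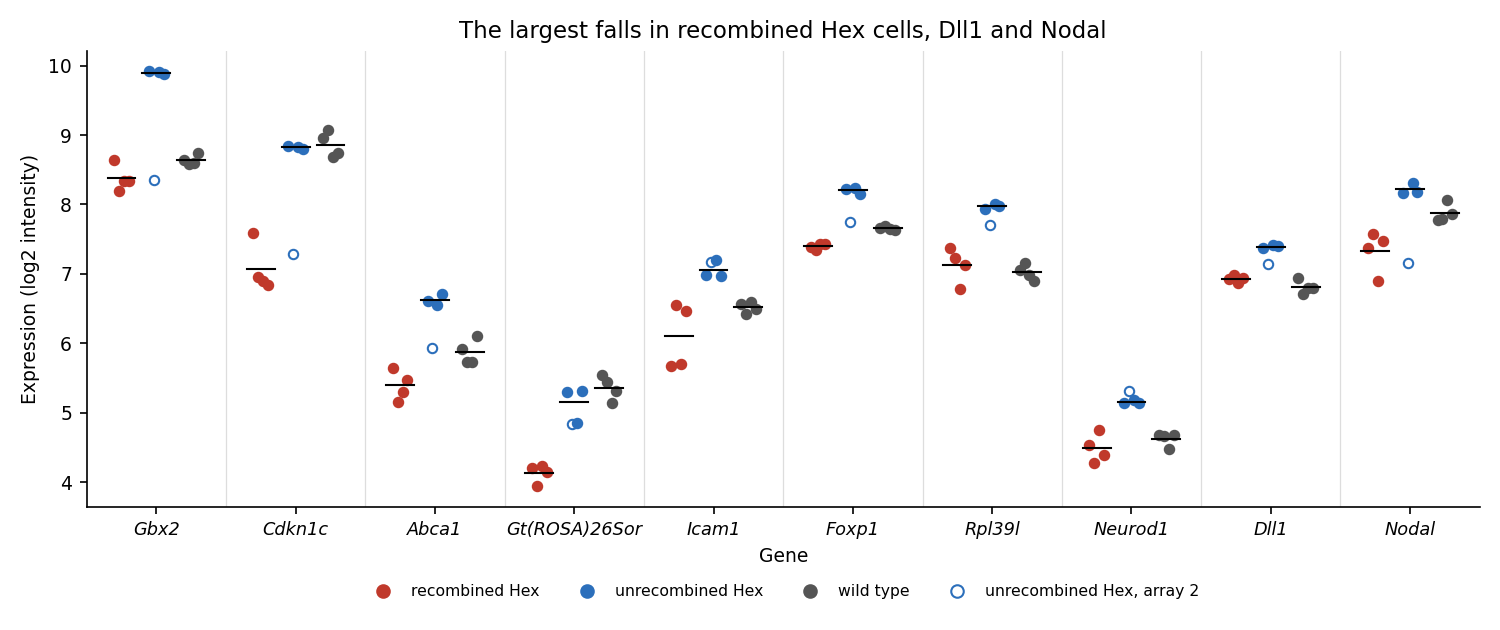
Log2 intensity of 9 genes that fell and of Nodal, which passed only without unrecombined array 2, for each array of recombined Hex (red), unrecombined Hex (blue, array 2 open) and wild-type cells (grey), with group means as lines, array 2 left out of its mean. In Cdkn1c and Gt(ROSA)26Sor the recombined arrays sat below wild type, and in Gbx2, Rpl39l and Dll1 the unrecombined arrays other than array 2 sat above it.

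Nodal signalling and the Groucho/TLE co-repressors are the pathways most tied to Hex in the embryo, and few of their genes passed. Nodal, the ligand that patterns the epiblast, gave 7.38, 7.57, 6.89 and 7.47 in recombined cells, 8.17, 7.15, 8.31 and 8.18 in unrecombined cells, and 7.78, 7.79, 8.07 and 7.86 in wild type. Array 2 lay within the recombined range and the other 3 unrecombined arrays above it, and the difference was -0.62 (SE 0.18, adjusted p = 0.0502) with all arrays and -0.89 (SE 0.15, adjusted p = 2.17e-04) without array 2. Tle4, a Groucho co-repressor, gave 7.98, 8.75, 8.17 and 8.8 in recombined cells, 9.06, 7.55, 9.13 and 8.81 in unrecombined cells, and 9.14, 8.60, 8.82 and 8.78 in wild type, with differences of -0.21 (adjusted p = 0.739) and -0.57 (adjusted p = 0.189). Of 22 measured Nodal and activin genes 0 passed in both fits and 4 passed as lower without array 2 (4.42% of all genes did), namely Nodal, the repressors Ski (-0.57) and Skil (-0.28), and Inhbb (-0.37), a subunit of activin B. None of the 4 measured Groucho/TLE genes passed in either fit, with Tle5 at 0.06 and 0.12.

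In the other developmental lists few members passed in both fits. Of 36 measured Wnt genes the receptor Fzd2 on chromosome 11 rose (0.86 and 0.66), a call lost without recombined array 2 (0.73, adjusted p = 0.0728), and of 18 BMP and Id genes Id3 rose (1.0 and 0.77), lost without the same array (0.83, adjusted p = 0.0664). Of 20 primitive and visceral endoderm genes Cited1 rose (0.26 and 0.26), a call lost without recombined array 1 or 2 or unrecombined array 4 (0.25, 0.25 and 0.24). None of 12 anterior endoderm genes passed in both fits: Dkk1, a Wnt inhibitor, passed with all arrays only, where 2.99% of genes were higher (0.25, adjusted p = 0.0454, and 0.19 without array 2), and the homeobox gene Hesx1 without array 2 only (0.34, adjusted p = 0.0639, and 0.49). The single rises of the blood and endothelium (Kit), trophoblast (Tfap2c) and immediate-early (Phlda1) lists, and both of the fibroblast list (Acta2 and Tagln), are genes already described. None of 20 primitive streak and mesoderm genes passed in either fit (Mesp1 0.17, Foxc2 0.04).

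The autophagy genes that rose lay on the same 2 chromosomes. Of 16 measured members 3 rose and 1 fell, against 1.89% and 0.727% of all genes. The list itself is rich in these chromosomes: 7 of its 16 members lie on them, against 1114 of all 8251 genes. The risen ones were Calcoco2 and the receptor Sqstm1 (p62) on chromosome 11 and Gabarapl2, a ubiquitin-like protein of the autophagosome, on chromosome 8. Sqstm1 gave 9.33, 9.33, 9.23 and 9.22 in recombined cells, 8.43, 8.41, 8.66 and 8.45 in unrecombined cells, and 9.44, 9.48, 9.32 and 9.42 in wild type, a rise of 0.79 (SE 0.08, adjusted p = 7.59e-08) and 0.76. Gabarapl2 (0.62 and 0.30) lost its call without recombined array 1, 2 or 3 (0.58 to 0.63). Bnip3, a mitophagy receptor induced by hypoxia, fell by 0.68 and 0.47. The 2 risen genes of the 62 measured subunits of oxidative phosphorylation, Ndufb7 and Uqcr10, and the 2 of the 22 unfolded protein response genes, Herpud1 and Xbp1, also lay on chromosome 8 or 11. In these lists 5 of the 62 and 5 of the 22 genes lie there. A second Ndufb7 probe set did not pass (-0.15, adjusted p = 0.659, and 0.13 without array 2). The Xbp1 rise was 1.29 with array 2, which read 4.79, and 0.60 without it, and its call was lost without recombined array 1, 2 or 4 (1.22 to 1.25, adjusted p up to 0.0824).

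Metabolic and growth lists showed single calls. Ak4, a mitochondrial adenylate kinase induced by hypoxia, rose by 0.82 and 0.63 (a second probe set, at 0.44 and 0.33, did not pass) and Bnip3 fell among 23 hypoxia and glycolysis genes. Srebf1, a regulator of lipid synthesis on chromosome 11, rose by 0.41 and 0.42 among 20 cholesterol genes, in which Abca1 fell; the Srebf1 call was lost without recombined array 1, 2 or 4 or unrecombined array 4 (0.36 to 0.42). Cd24a, a surface glycoprotein, rose by 0.86 (SE 0.08, adjusted p = 8.18e-09) and 0.86 among 26 adhesion genes. None of 32 cell cycle genes, 13 p53 targets, 15 LIF and STAT3 genes, 7 purine synthesis genes or 7 DNA methylation genes passed in both fits. Without array 2, where 4.42% of all genes were lower, 4 p53 targets, Mdm2 (-0.60), Gadd45g (-0.60), Plk2 (-0.52) and Zmat3 (-0.43), passed as lower. So did the DNA methyltransferase Dnmt3a (-0.51) and the methylation-sensitive homeobox gene Rhox5 (-0.37), the purine enzyme Gart (-0.55) and the proliferation marker Mki67 (-0.54).

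Genes whose recombined level differed from wild type as well were few. Among the genes already described, Hspa1b, Hspa1a, Acta2, Acta1, Mest and Cited1 were higher in recombined cells than in both other groups, and Gt(ROSA)26Sor, Foxp1 and Cdkn1c were lower, each past the threshold against wild type without array 2 as well as in both fits against unrecombined cells. With all arrays Cited1 (limma, adjusted p = 0.0621) and Foxp1 (limma, adjusted p = 0.177) did not pass against wild type. Gm4802, a predicted gene on chromosome 16, was also higher than in both other groups, at 8.69, 8.54, 8.51 and 8.45 in recombined cells, 7.57, 7.75, 7.56 and 7.46 in unrecombined cells, and 7.76, 7.72, 7.75 and 7.57 in wild type, a rise of 0.96 (SE 0.08, adjusted p = 4.25e-10) and 1.02. In the chromosome 11 genes Dynll2, Calcoco2, Dnajc7 and Sqstm1 and in Gbp2b, Gbp2, Gbp3, B2m, Anxa3 and Dsp the recombined level lay near wild type, and the low side was the unrecombined one.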

How the data were processed

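Total RNA of mouse ES cells was measured on 44 Affymetrix arrays. The deposited values are linear intensities, made by the authors with RMA per the submitters' processing notes, which give no version; their spread still differed between arrays. Here log2 was taken of the deposited intensity, with no further normalization. A single limma fit (limma 3.58.1, R 4.3.3) of 11 group means over 40 arrays, with 29 residual degrees of freedom, gave two-sided moderated tests with Benjamini-Hochberg adjustment over 12422 probe sets and a threshold of 0.05; it was tested on simulated data first. The 4 arrays whose labels contradict themselves were left out. Genes were read from their brightest probe set with 1 symbol (10833 probe sets had 1 symbol, 396 several, 1193 none), and 10817 were matched to the RefSeq table of GRCm38.p6 for chromosome and gene order. Promoters came from the same build.

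Genes were named by rule: Hhex, Tle4 and Nodal, up to 15 largest rises and 15 largest falls that passed in both fits without overlap, and up to 4 passing members, or 2 by size, of each of 33 lists; other list members are given as values. The genes, lists and comparison were chosen with earlier results of these data known. Alternatives were normalization, filters, an offset, array weights, subsets of arrays, the β-actin ratio, a replicate block and leaving out each array. Same-numbered arrays were checked for pairing. Figures were drawn with matplotlib 3.10.9 (Python 3.11.15).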

Additional observations from a re-analysis of the deposited data

Results flagged for a closer look

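Single arrays that stood far from the other 3 of their group, by the gap to the nearest relative to the whole range of the group, occurred in 38 of 249 groups of the named genes, and chance flags about 1 in 20 groups. Of these, 28 were array 2 of unrecombined Hex, the array with the compressed range, which was the lowest of its group in each case. Its log2 intensities were Nodal (7.152), Dnajc7 (7.39), Tagln (6.981), Phlda1 (4.717), S100a6 (6.048), Foxp1 (7.743), Dnaja2 (7.545), Xbp1 (4.788), Krt8 (7.313) and Nanog (9.904) among the first of these genes. They were Ski (7.625), Cdkn1c (7.292), Mest (6.599), Dnmt3a (7.777), Rhox5 (6.938), Tfap2c (8.037), Adsl (7.806), Gart (8.726) and Ak4 (6.881) in the next. They were Mdm2 (8.766), Mcm4 (8.641), Rrm2 (8.8), Anxa3 (6.231), Anxa1 (6.074), Gabarapl2 (8.663), Gbx2 (8.356), Dll1 (7.137) and Uqcr10 (8.691) in the rest. For Gbx2, Cdkn1c and Nodal these values fell inside the recombined range, so the differences were larger without the array.

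In wild type, array 3 stood apart in 6 genes, Phlda1 (6.069), Pros1 (6.071), Neurod1 (4.474), Tbx3 (5.236), Tfap2c (9.356) and Foxc2 (5.314), and array 4 in Herpud1 (6.717). Among recombined arrays, array 3 was low in Xbp1 (7.616) against 8.301 to 8.39 on the others, array 4 low in Cited1 (7.073) against 7.139 to 7.149, and array 1 high in Cdkn1c (7.588) against 6.845 to 6.958.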

How the results depend on the processing

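Over 2056 comparisons of a named gene with an alternative, 1744 kept direction and side of the threshold, 239 kept direction and lost the call, 49 gained it and 24 turned sign; the cause of these changes was not tested unless stated. The number of probe sets called between recombined and unrecombined cells ran from 233 (without recombined array 2) to 778 (without unrecombined array 2) when 1 array was left out, with 273 without recombined array 1. The same range was 26 to 170 between recombined cells and wild type, and 378 (without wild-type array 2) to 1595 (without unrecombined array 3) between unrecombined cells and wild type. Array weights gave 1442, 266 and 1543 calls in these 3 comparisons. The 12 Hex and wild-type arrays alone gave 47, 5 and 73, from fewer arrays behind the spread. The 8 Hex arrays alone gave 8 (614 at an unadjusted p under 0.05). The 7 left without array 2, chosen after seeing the data, gave 427, 126 higher and 301 lower. With the β-actin ratio as covariate 656 probe sets passed in the main comparison and 61 between recombined cells and wild type, and with array 2 left out as well 1638, 613 and 903. A threshold of 0.01 left 180 in the main comparison and 253 between unrecombined cells and wild type. With the probe sets mapped to chromosomes 8 and 11 left out and unmapped ones kept, 270 of 10930 passed, 174 higher and 96 lower. The replicate numbers did not pair the arrays (correlations of same-numbered deviations 0.08, -0.35, -0.70 and 0.39), and limma with the replicate block called 0 (396 at an unadjusted p under 0.05).

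The chromosome 8 excess ran from 0.0938 (without unrecombined array 2) to 0.187 when 1 array was left out, and was 0.0938 in the 7 arrays, 0.241 in the brighter probe sets, 0.107 with array weights and 0.0873 with the β-actin ratio and without array 2; that of chromosome 11 was 0.190 in the brighter probe sets. No sign change concerned a gene that passed in both fits. Leaving out 1 array gave Tle5 -0.00557 to 0.121, Adsl -0.587 to 0.218, Rhox5 -0.369 to 0.123, Gart -0.554 to 0.156 and Foxc2 -0.0394 to 0.193. Tle5 was -0.0337 after quantile normalization, Foxc2 -0.00985 after centring, and Hhex -0.0381 with array weights. Adsl was -0.0443 after centring, -0.00404 with an offset of 16, -0.488 with array weights, -0.587 in the 7 arrays, and -0.234 and -0.628 with the β-actin ratio, with and without array 2.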

Other observations

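Some genes outside the naming rule, chosen after their values were seen, also passed in both fits. In Dmrt1, Hes6 and Ptch1 the groups overlapped through unrecombined array 2, and in Actc1 they did not overlap. Dmrt1, a germ cell transcription factor, gave 6.56, 6.72, 6.64 and 6.75 in recombined cells, 7.55, 6.66, 7.46 and 7.5 in unrecombined cells, and 6.94, 6.93, 6.88 and 7.0 in wild type, and fell by 0.63 with all arrays (limma, adjusted p = 0.00875) and by 0.84 without array 2. Hes6, a basic helix-loop-helix factor of neurogenesis, fell by 0.62 and 0.87, with wild type near the recombined level. Ptch1, the Hedgehog receptor, fell by 0.81 and 1.12 on 1 probe set, while another did not pass (0.21 and 0.13). Actc1, cardiac actin, gave 4.97, 5.04, 4.82 and 5.14 in recombined cells, 4.21, 3.68, 3.89 and 4.22 in unrecombined cells, and 4.46, 4.33, 4.51 and 4.2 in wild type. It rose by 0.99 and 0.89, all values below the array medians.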
